A study of Mus musculus with 2 samples.

Results

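The 29 genes described here act in cholesterol synthesis, efflux and sterol sensing, and they were chosen by symbol: 15 enzymes of the synthesis pathway, 4 sterol sensors and regulators, 5 receptors and targets of the liver X receptors (LXR), and 5 genes of sterol export, storage and transport. All 29 were present among the 32285 genes of the single-cell matrices. The cells were sorted on CD45, the surface protein common to leukocytes, from B6 mouse kidney with aristolochic acid nephropathy, which the labels class as chronic kidney disease. Aristolochic acid is a plant toxin that injures the proximal tubule. The single-cell library held 2 samples marked with antibody hashtags, called hashed sample 1 and hashed sample 2 below. Both carry the same strain, treatment and time labels, and no untreated group was analysed here. The time label gives week 2, while the library's title names W1, W2 and mouse 1. The names of the 2 deposited matrices carry w2 m1 and W2 m2, which reads as week 2 for both and a different mouse for each. Since the title differs from these names, the week and animal of each hashed sample are not settled by the labels. Every comparison is therefore between cell classes, each with a value in each hashed sample and no test across animals.

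Cells make cholesterol from acetyl-CoA through mevalonate, farnesyl pyrophosphate, squalene and lanosterol. When sterol in the endoplasmic reticulum is low, the carrier Scap takes the transcription factors Srebf1 and Srebf2 to the Golgi for cleavage, and they then switch on the synthesis enzymes, while Insig1 holds Scap back when sterol is plentiful. Surplus cholesterol is turned into oxysterols that activate the LXR receptors Nr1h2 and Nr1h3, which raise the exporters Abca1 and Abcg1 and the ubiquitin ligase Mylip. Macrophages take up much cholesterol with dead cells, free it in the lysosome and either export or esterify it.

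The sequences just upstream of the transcription start are given for 3 synthesis genes that were higher in Arg1 macrophages and, for contrast, for the exporter Abca1, which was lower there. They are the 250 bases before the start in RefSeq's GRCm38.p6 annotation: chr13:119690101-119690350 (+) for Hmgcs1, chr13:8885356-8885605 (+) for Idi1, chr5:4104698-4104947 (-) for Cyp51 and chr4:53159896-53160145 (-) for Abca1. Capitals mark the searched motifs on either strand, which were TCACNCCAC for the sterol regulatory element and CCAAT for the CCAAT box.
Hmgcs1: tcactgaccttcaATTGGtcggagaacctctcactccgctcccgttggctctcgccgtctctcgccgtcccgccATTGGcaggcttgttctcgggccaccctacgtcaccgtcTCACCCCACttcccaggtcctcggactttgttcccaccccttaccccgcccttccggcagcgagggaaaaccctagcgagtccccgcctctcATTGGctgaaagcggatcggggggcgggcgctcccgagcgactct
Idi1: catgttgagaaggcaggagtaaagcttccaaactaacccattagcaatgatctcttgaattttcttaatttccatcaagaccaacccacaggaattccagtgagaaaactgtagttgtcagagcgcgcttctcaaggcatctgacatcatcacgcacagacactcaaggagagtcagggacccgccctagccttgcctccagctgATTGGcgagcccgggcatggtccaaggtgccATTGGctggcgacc
Cyp51: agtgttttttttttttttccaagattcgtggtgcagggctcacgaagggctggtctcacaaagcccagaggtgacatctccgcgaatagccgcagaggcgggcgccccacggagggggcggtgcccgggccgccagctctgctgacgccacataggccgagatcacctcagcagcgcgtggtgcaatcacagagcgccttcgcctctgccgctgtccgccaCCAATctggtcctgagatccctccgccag
Abca1: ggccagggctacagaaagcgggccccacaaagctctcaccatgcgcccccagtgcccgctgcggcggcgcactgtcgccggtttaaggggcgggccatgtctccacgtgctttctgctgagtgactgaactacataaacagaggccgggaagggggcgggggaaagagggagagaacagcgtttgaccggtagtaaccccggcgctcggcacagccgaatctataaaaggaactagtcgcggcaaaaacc

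In the Hmgcs1 window the sterol regulatory element lay 137 bases before the start, with CCAAT boxes at 237, 176 and 45 bases. Idi1 held CCAAT boxes at 45 and 14 bases, Cyp51 held 1 at 29 bases, and the Abca1 window held neither motif. RefSeq windows were matched for 23 of the 29 genes. The 12 matched synthesis genes had 15 windows, since some genes have several starts, and 11 of the 15 held a CCAAT box, a motif found in 33.8% of 32851 windows of the same length. The box was not confined to synthesis genes, since 18 of all 23 matched members held it. These included 3 of 4 sensing genes, 1 of 4 LXR genes and 3 of 3 genes of export, storage and transport. The 1 LXR gene was Mylip, which like Abca1 was lower in Arg1 macrophages. Hmgcs1 was the single member with TCACNCCAC, found in 1.05% of windows. The LXR element was searched only as an exact consensus, a direct repeat of its 6-base unit with a 4-base spacer. No exact match was found in the windows of the matched members, and 0.0152% of all windows held 1. Copies that depart from the consensus were not searched for. The lack of an exact match therefore does not show that a window, such as that of Abca1, has no LXR site.

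Cells were assigned to classes by UMIs (counted transcript molecules) of marker genes, and no member, nor Apoe or Lpl, took part in any gate. Of 7015 barcodes, 6601 were kept, with a median of 5688 UMIs per cell in hashed sample 1 and 6570 in hashed sample 2. Macrophages were resting cells with at least 60 UMIs of C1qa, C1qb and C1qc per 10000 (1026 and 1409 cells in the hashed samples, a pair given in that order from here on). T cells had at least 3 UMIs of T cell receptor and CD3 genes and little C1q. Macrophages could hold at most 1 T cell UMI and T cells fewer than 30 C1q UMIs per 10000, and cells outside these limits were left out. The labels call the cells mesenchymal stem cells, but the CD45 gene Ptprc was at 475 and 474 CPM (UMIs per 1000000) over all kept cells, while the mesenchymal genes Col1a1 (0.640 and 2.25 CPM) and Pdgfrb (0.640 and 0.885 CPM) were near 0. The UMIs of each class were summed per hashed sample. A gene was measured in a comparison when 1 of its classes reached 20 CPM and 10 UMIs in both hashed samples, and a difference was counted when it reached 1.5-fold in both hashed samples with the same sign. A gene low in 1 class could thus be measured through the class where it was high. Log2 ratios carry a pseudocount of 5 CPM, which understates the change of low genes. Intervals are exact at 95% and cover counting error only.

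**Figure D1:**
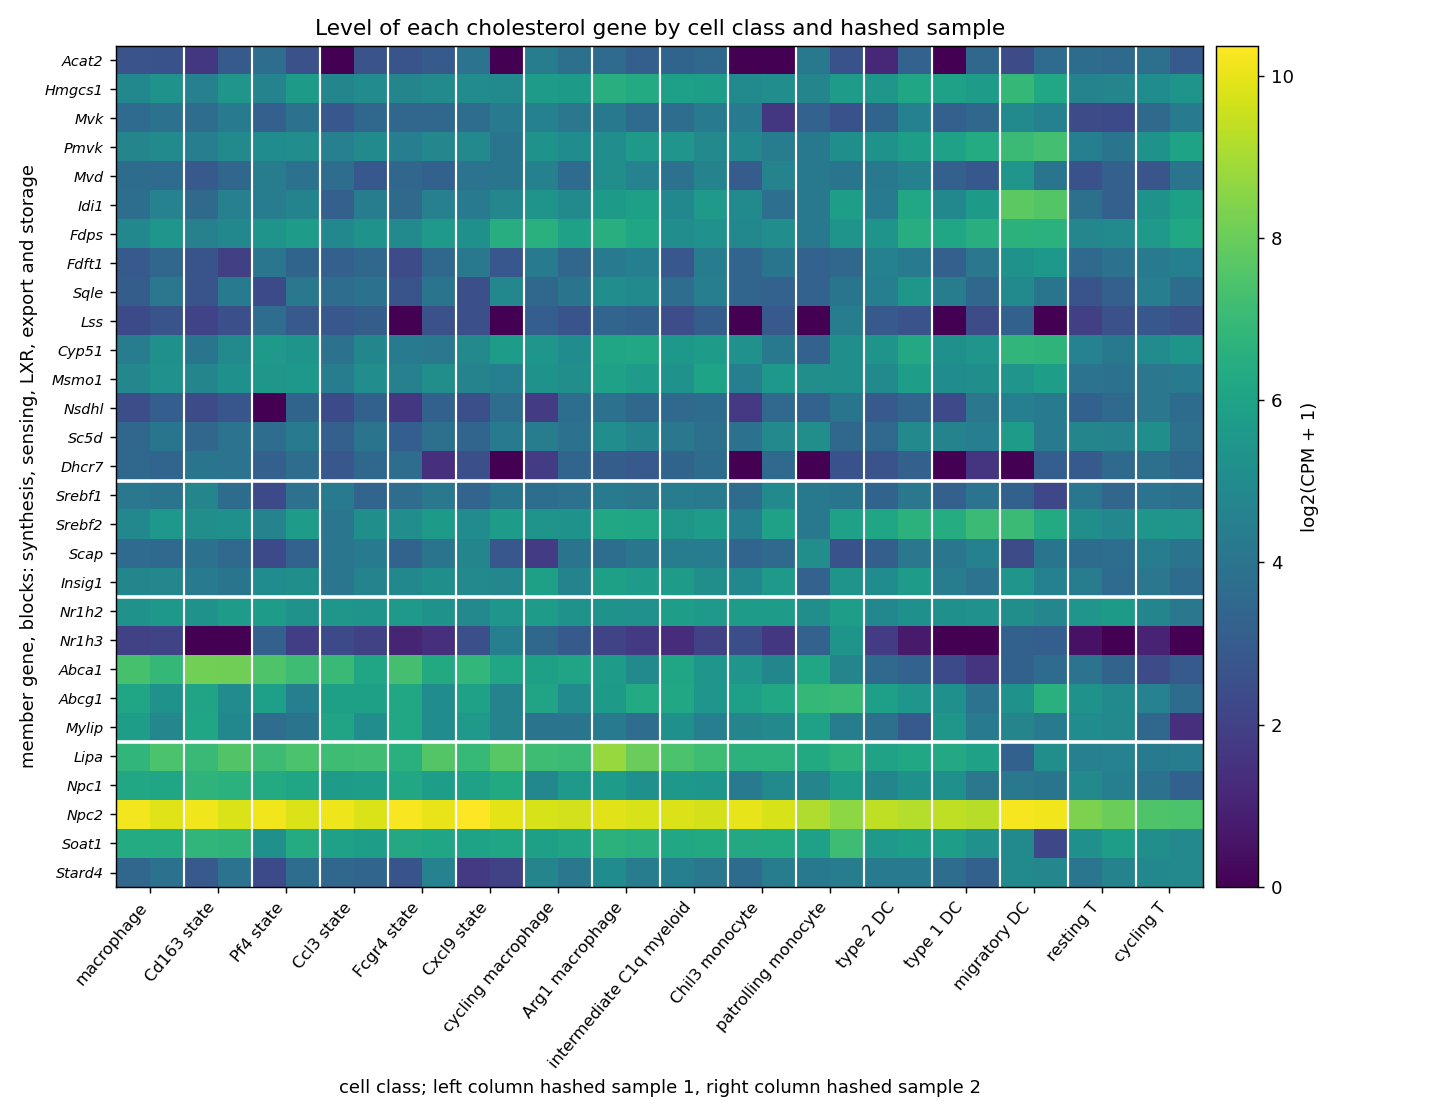
Level of the 29 members as log2(CPM + 1), with genes as rows and cell classes as columns, each class split into hashed sample 1 (left) and hashed sample 2 (right). Colours are to be read along a row: Idi1 and Pmvk peak in migratory dendritic cells, Abca1 in the macrophage states, and Lipa in Arg1 macrophages.

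In 13 comparisons of classes, 21 members were measured at least once and 17 were counted at least once. The other 8 (Acat2, Mvk, Lss, Nsdhl, Dhcr7, Srebf1, Scap and Nr1h3) were too low to be measured in any of these class comparisons. The summed level of the 15 synthesis genes was 203 CPM in resting T cells of each hashed sample, and 210 and 299 CPM in macrophages. It reached 570 and 521 CPM in macrophages with Arg1 and Mmp12, and 942 and 832 CPM in migratory dendritic cells. The summed LXR receptors and targets were ordered differently. They stood at 325 and 232 CPM in macrophages, 455 and 388 CPM in macrophages of the Cd163 state, 160 and 159 CPM in Arg1 macrophages, and 64.0 and 36.5 CPM in cycling T cells. Of the receptors themselves, Nr1h2 was found at 39.4 and 44.8 CPM in macrophages and 40.9 and 49.8 CPM in resting T cells. Nr1h3, the receptor usually linked to macrophages, was at only 3.04 and 3.35 CPM in macrophages and had 0 UMIs in the Cd163 state, where 3 UMIs would have been 3.27 and 2.88 CPM.

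Macrophages held more Abca1 and Npc1 than monocytes of the Chil3 gate did, and no synthesis gene was counted. Abca1, which loads cholesterol onto lipid-poor apolipoprotein at the cell surface, was at 161 and 118 CPM in macrophages and at 42.0 and 25.9 CPM in monocytes gated on Chil3 and Vcan (73 and 78 cells). Both macrophage values lay above both monocyte values, as they did for 4 of 16 measured members and 27.9% of measured genes. The Abca1 ratios were 3.84 (2.41 to 6.50) and 4.56 (2.60 to 8.86). Npc1, which moves cholesterol out of the lysosome, was at 71.3 and 67.5 CPM against 18.7 and 30.3 CPM, with log2 ratios of 1.69 and 1.04. These were 2 of 16 measured members, a share near the 14.1% of all measured genes counted in either direction (7.97% higher). Of the 6 measured synthesis genes, Pmvk (phosphomevalonate kinase) had the largest mean difference, at 25.3 and 29.5 CPM against 28.0 and 19.4 CPM. Insig1 was at 25.9 and 26.9 CPM against 28.0 and 47.5 CPM. Among related genes, the apolipoprotein Apoe (log2 1.24 and 1.26) and the phospholipid transfer protein Pltp (2.59 and 2.15) were also higher in macrophages. Dissociation stress genes such as Fos were lower in macrophages for 7 of 11, and their part in these differences was not tested. This monocyte gate was added after the first gate, which required Ly6c2, gave 12 and 18 cells that also held plasmacytoid dendritic cell markers. Against those cells Abca1 and Lipa were counted, 2 of 14 measured members against 17.0% of genes. The intervals of both ratios in hashed sample 1 included 1. Npc1, at 61.0 and 55.2 CPM in those cells, was not counted.

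Against resting T cells (646 and 363 cells), the members that stood higher in macrophages were mostly lysosomal. Npc2, which hands lysosomal cholesterol to Npc1, was at 1156 and 919 CPM in macrophages and at 315 and 261 CPM in resting T cells. Lipa, the lysosomal acid lipase that frees cholesterol from its esters, was at 112 and 170 CPM against 21.9 and 22.9 CPM. Npc1 was at 71.3 and 67.5 CPM against 28.2 and 21.2 CPM. In each of the 3 genes both macrophage values lay above both T cell values, which held for 10 of 16 measured members and for 34.7% of measured genes. Abca1 differed most, at 161 and 118 CPM against 14.3 and 8.98 CPM, with log2 ratios of 3.10 and 3.14. Msmo1, a sterol C4-methyl oxidase, was at 26.6 and 36.4 CPM against 14.3 and 13.9 CPM and was the 1 synthesis gene counted. In all, 5 of 16 members were higher and 0 lower, against 39.5% of genes counted in either direction and 19.7% counted as higher. Stress genes were higher in macrophages for 6 of 11, and their part was not tested. The T cell values were set against free RNA from macrophages. Macrophage genes that T cells should lack, such as Csf1r (3.76% and 3.54%) and Ctss (8.49% and 9.18%), had T cell levels that were a few percent of their macrophage levels. Abca1 in resting T cells was at 8.90% and 7.60% of its macrophage level, near the upper end of that background. It lay above Ctss, the highest of these genes, in hashed sample 1 and below it in hashed sample 2. The next of these genes, Cd68, was at 7.14% and 6.39%. Npc1 was at 39.6% and 31.5% and Npc2 at 27.2% and 28.4%, above all of them.

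Within macrophages, the Cd163 state held the most Abca1. This state, gated on Cd163, Lyve1, Cbr2 and F13a1 (144 and 157 cells), had 283 and 277 CPM of Abca1, against 140 and 97.4 CPM in the other macrophages. The ratios were 2.03 (1.75 to 2.34) and 2.85 (2.48 to 3.27). The UMIs were spread over many cells, 90 of 144 and 99 of 157, with at most 13 in 1 cell. Npc1 was at 106 and 97.9 CPM against 65.3 and 63.5 CPM, ratios of 1.62 and 1.54 that lie just past the 1.5-fold rule. With TMM scaling, which moved the median of all genes from 0.09 to -0.05 on the log2 scale, or with cells of at most 5% mitochondrial UMIs, Npc1 was no longer counted. These 2 of 15 members were all that was counted, against 7.83% of genes in either direction (4.42% higher). Abcg1, which exports cholesterol to mature lipoprotein particles, did not follow Abca1. It was at 65.4 and 30.7 CPM in the Cd163 state, against 68.7 and 38.7 CPM in all macrophages. Fdps (21.8 and 27.8 against 28.3 and 45.0 CPM) and Insig1 (18.5 and 15.4 against 27.2 and 28.4 CPM) were not counted. Of related genes, lipoprotein lipase Lpl was lower, with log2 ratios of -2.73 and -1.68. Stress genes were lower in this state for 9 of 11 (summed level 11.9 and 14.7 per 10000 UMIs, against 29.6 and 31.0 in all macrophages), and their part in the Abca1 difference was not tested.

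Macrophages low in MHC class II (158 and 492 cells) had 268 and 183 CPM of Abca1, and those high in MHC class II (868 and 917 cells) had 140 and 84.0 CPM, which gave log2 ratios of 0.92 and 1.08. Abca1 was the 1 member of 15 counted, against 4.67% of genes in either direction (2.7% higher). Stress genes were lower in MHC II-low cells for 8 of 11, and this was not tested as a source. The Cd163 state overlaps with the MHC II-low cells. Outside the Cd163 state, Abca1 levels were 201 and 147 CPM with low MHC II and 133 and 77.3 CPM with high MHC II, ratios of 1.52 (1.23 to 1.86) and 1.90 (1.64 to 2.19). Abca1 was not counted there only because the pseudocount of 5 CPM takes the ratio in hashed sample 1 to 1.498, and no other member was counted. That split was chosen after the values were seen. Within the Cd163 state, cells low in MHC II had 351 and 283 CPM and the rest 216 and 257 CPM. Npc1 (102 and 81.8 against 65.3 and 59.9 CPM), Msmo1 (24.5 and 30.2 against 27.0 and 39.7 CPM) and Insig1 (20.6 and 27.0 against 27.0 and 26.9 CPM) were not counted.

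The remaining states differed little in these genes. In the Pf4 state (Pf4, Ccl7 and Ccl12; 37 and 215 cells), Mylip was at 12.0 and 14.8 CPM against 54.9 and 28.6 CPM in the other macrophages. The first of these values rests on 3 UMIs, with a ratio of 0.219 (0.0449 to 0.644). It was the 1 of 15 members counted, against 2.05% of genes in either direction (1.55% lower). Stress genes were lower in the Pf4 state for 5 of 11, and their part was not tested. No member was counted in the Ccl3 state (0 of 15, against 2.54% of genes), the Fcgr4 state (0 of 14, against 1.41%) or the Cxcl9 state (0 of 15, against 5.82%). Their Abca1 levels were 128 and 69.2 CPM, 156 and 78.6 CPM, and 114 and 66.5 CPM. Each of these was at or below the 161 and 118 CPM of all macrophages in the same hashed sample. Dissociation stress genes were higher in the Ccl3 state for 10 of 11, and their part was not tested. In the Cxcl9 state the farnesyl pyrophosphate synthase Fdps was at 35.7 and 87.7 CPM against 26.8 and 41.2 CPM. In the Pf4 state the lanosterol demethylase Cyp51 was at 48.0 and 40.2 CPM against 18.4 and 34.6 CPM, which passed 1.5-fold in hashed sample 1 alone.

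**Figure D2:**
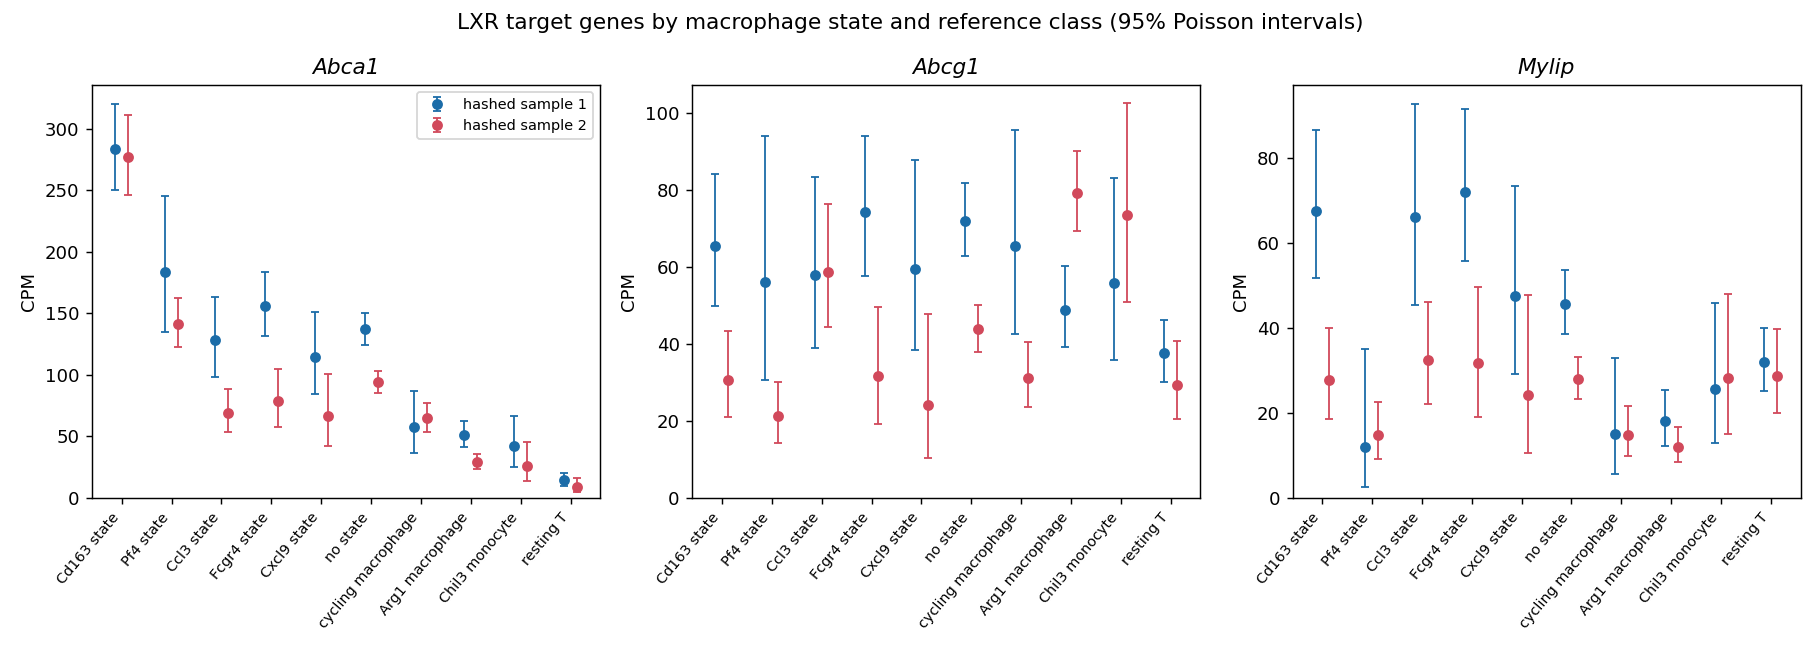
CPM of Abca1, Abcg1 and Mylip in macrophage states, cycling and Arg1 macrophages, Chil3 monocytes and resting T cells, with points for each hashed sample and 95% Poisson intervals. Abca1 is highest in the Cd163 state (283 and 277 CPM), while the Abcg1 and Mylip values of hashed sample 1 lie above those of hashed sample 2 in most macrophage states.

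Macrophages with Arg1 and Mmp12 (169 and 291 cells) showed more synthesis RNA and less Abca1 than the C1q-high macrophages. Of 20 measured members, 7 were higher and 2 lower, against 13.4% of genes in either direction (6.03% higher and 7.41% lower). Among the 9 measured synthesis genes, 6 were higher, and the median log2 ratio of the 9 was 1.53 and 0.73, against -0.03 and -0.06 over all genes. Idi1, Cyp51, Sqle, Mvd and Sc5d were under 20 CPM in macrophages of hashed sample 1 and were measured there only through the Arg1 class, where they were high. The count and the median are therefore drawn partly from genes selected for being high in Arg1 cells. Hmgcs1 and Fdps, also counted, reached 20 CPM in the macrophages of both hashed samples. Hmgcs1, which makes HMG-CoA, was at 89.3 and 79.1 CPM against 27.5 and 38.1 CPM, ratios of 3.24 (2.60 to 4.05) and 2.08 (1.75 to 2.47). Idi1, the isopentenyl diphosphate isomerase whose window is printed above, was at 49.4 and 57.1 CPM against 12.3 and 23.4 CPM. Cyp51 was at 68.0 and 74.0 CPM against 19.5 and 35.5 CPM. For all 3 genes both Arg1 values lay above both macrophage values, which held for 14 of 20 measured members and for 27.6% of measured genes. Fdps (92.1 and 69.8 against 27.4 and 43.0 CPM), the squalene epoxidase Sqle (32.6 and 29.9 against 7.37 and 16.1 CPM) and the mevalonate diphosphate decarboxylase Mvd (34.3 and 23.4 against 11.8 and 11.5 CPM) were also higher. The sensor Insig1, itself a target of the SREBP factors, was at 58.4 and 50.2 CPM against 25.9 and 26.9 CPM. Hmgcs1 UMIs came from 73 of 169 and 105 of 291 Arg1 cells, with at most 13 in 1 cell.

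Of the LXR targets, Abca1 and Mylip were lower in the Arg1 macrophages. Abca1 was at 51.1 and 28.9 CPM against 161 and 118 CPM, log2 ratios of -1.56 and -1.86. Mylip was at 18.0 and 12.0 CPM against 53.2 and 26.4 CPM. Abcg1 was at 48.9 and 79.1 CPM against 68.7 and 38.7 CPM, below the macrophages in hashed sample 1 and above them in hashed sample 2. Lipa was at 430 and 256 CPM against 112 and 170 CPM. Its log2 ratios of 1.89 and 0.58 fell just short of the rule in hashed sample 2, and with TMM scaling it was counted. Of the other LXR and efflux genes, 5 of 8 were lower, with Apoe at 5721 and 2750 CPM against 38340 and 27240 CPM, and 2 were higher, led by Lpl (log2 3.91 and 2.55). The scavenger receptor Cd36 was higher as well (3.29 and 2.43).

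The synthesis difference moved with the C1q level. The Arg1 gate set no lower bound at the macrophage cut, and its cells held 52.6 and 61.9 C1q UMIs per 10000, against 181 and 180 in the C1q-high macrophages. Among the 59 and 132 Arg1 cells at or above the cut, the synthesis sum was 388 and 380 CPM. It was 671 and 624 CPM in the 110 and 159 Arg1 cells under the cut, and 338 and 418 CPM in myeloid cells of intermediate C1q without the Arg1 markers. With the Arg1 cells held above the cut, 0 of 16 members were counted as higher, and Abca1 and Mylip were lower. No synthesis gene then reached the rule in both hashed samples, although the synthesis sum of those cells still lay above the 210 and 299 CPM of the macrophages. Abca1 in those cells was at 69.0 and 39.1 CPM, between the Arg1 cells under the cut (41.1 and 21.4 CPM) and the macrophages. Arg1 cells were also deeper, with a median of 10164 and 9799 UMIs against 6034 and 6277. All 9 counted members were still counted among cells of 5000 to 15000 UMIs. Stress genes were higher in Arg1 macrophages for 3 of 11, and their part was not tested. Both the C1q and the depth comparisons were added after the data were seen.

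**Figure D3:**
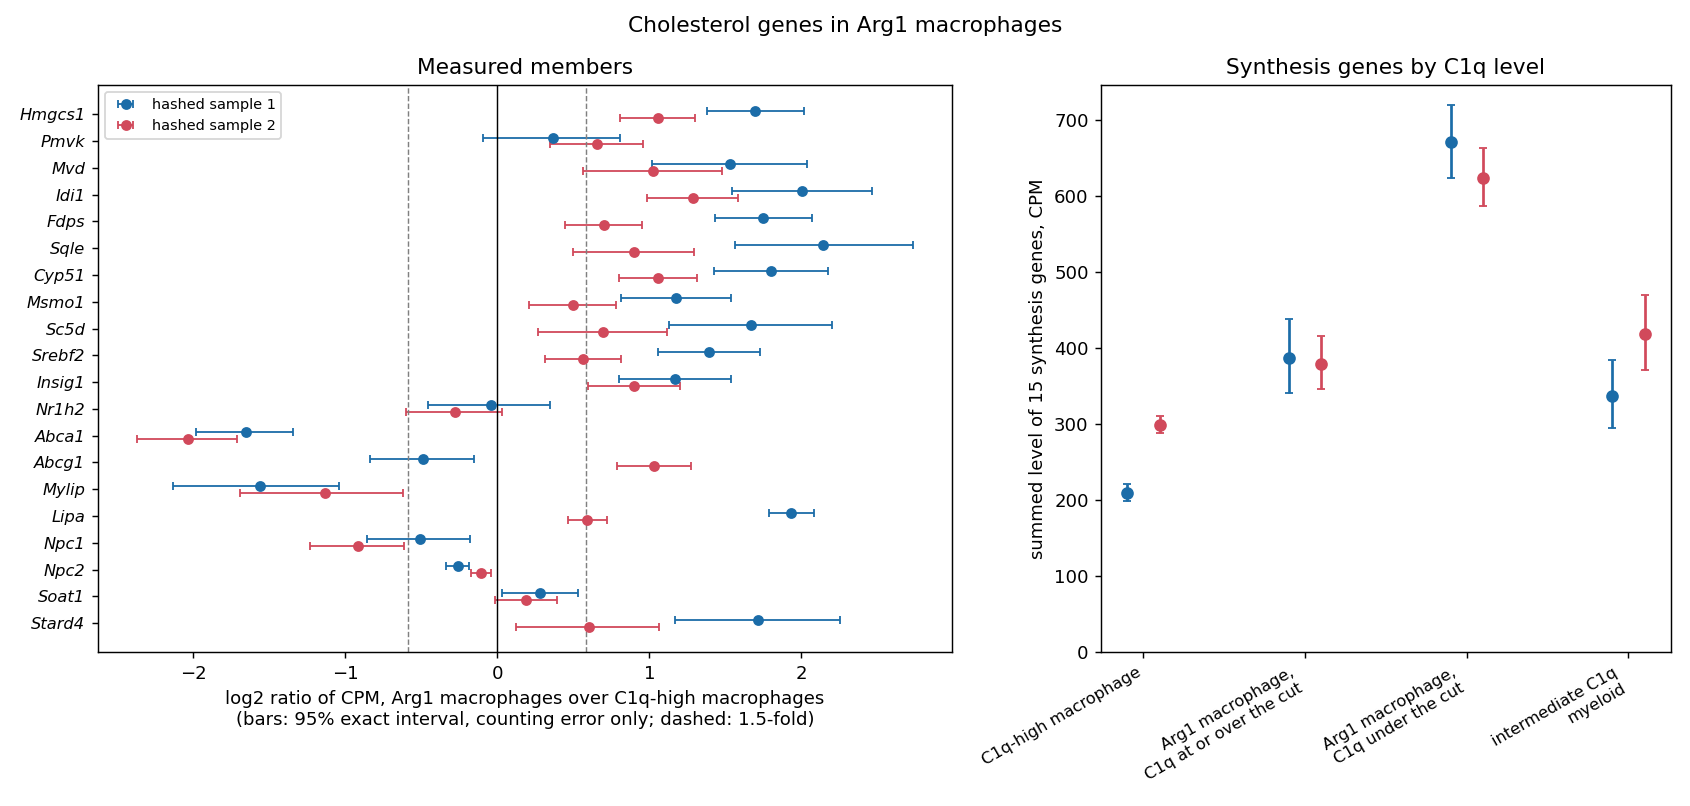
Left, log2 ratio of CPM, without pseudocount, of Arg1 macrophages over C1q-high macrophages for the 20 measured members in each hashed sample, with 95% exact intervals. Right, summed CPM of the 15 synthesis genes, which lies at 210 and 299 in C1q-high macrophages, 388 and 380 in Arg1 cells above the C1q cut and 671 and 624 in Arg1 cells under it.

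Cycling macrophages (33 and 157 cells) had less Abca1, at 57.8 and 64.6 CPM against 161 and 118 CPM in resting macrophages, with log2 ratios of -1.40 and -0.82. Mylip was at 15.1 and 14.8 CPM against 53.2 and 26.4 CPM. These were the 2 of 16 members counted, against 10.3% of genes in either direction (2.46% lower), and Mylip was no longer counted among cells of 5000 to 15000 UMIs. Cycling cells were deeper, with medians of 11075 and 10700 UMIs, and stress genes were lower in them for 4 of 11, whose part was not tested. The synthesis sum was 432 and 344 CPM against 210 and 299 CPM, and no synthesis gene was counted. Fdps was at 95.5 and 60.8 CPM against 27.4 and 43.0 CPM, and Insig1 at 57.8 and 24.1 CPM against 25.9 and 26.9 CPM, each past 1.5-fold in hashed sample 1 alone. Npc1 was at 27.6 and 47.1 CPM against 71.3 and 67.5 CPM. Apoe was lower in cycling macrophages (log2 -1.34 and -0.64).

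Migratory dendritic cells (Ccr7, Fscn1 and Ccl22, with 33 and 28 cells) held the highest levels of several synthesis enzymes among the main cell classes. Idi1, Pmvk, Fdps (100.5 and 98.3 CPM), Cyp51 (113 and 106 CPM), Fdft1 and the low Nsdhl had their highest value there in both hashed samples. For Fdps and Nsdhl the lead was small. Fdps was at 95.5 CPM in cycling macrophages of hashed sample 1 and 90.3 CPM in type 1 dendritic cells of hashed sample 2. Nsdhl, at 20.9 and 18.9 CPM, was followed by classes at 16.1 and 16.4 CPM. Of the genes highest there, Idi1, Pmvk and Fdft1 were counted against type 2 dendritic cells. Idi1 was at 214 and 193 CPM against 18.4 and 71.7 CPM in type 2 dendritic cells (89 and 167 cells), ratios of 11.6 (6.33 to 22.7) and 2.69 (1.89 to 3.79). Its 51 UMIs in each hashed sample came from 15 of 33 and 18 of 28 cells, and 11 of them from 1 cell of hashed sample 1. Pmvk was at 134 and 155 CPM against 38.1 and 54.3 CPM, ratios of 3.52 (2.06 to 6.03) and 2.86 (1.91 to 4.21). For both genes the migratory values lay above both type 2 values, which held for 7 of 18 measured members and for 22.2% of measured genes. Type 2 cells of hashed sample 1 fell short of the CPM needed to be measured for Idi1. It was thus measured only through the migratory class, where it was high. The squalene synthase Fdft1 was at 37.7 and 45.4 CPM against 22.3 and 18.8 CPM, and its interval in hashed sample 1 included 1. Npc2 was at 1197 and 1135 CPM against 667 and 594 CPM. Lipa was lower, at 8.37 and 34.0 CPM against 61.7 and 70.4 CPM, and so was Soat1, which esterifies cholesterol for storage, at 29.3 and 3.78 CPM against 47.2 and 53.6 CPM. Lipa and Soat1 rested on 2 and 9, and 7 and 1, UMIs in migratory cells.

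These 6 of 18 members compare with 34.9% of genes counted in either direction, a share near theirs. By direction, 4 of 18 were higher against 11.3% of genes, and 2 of 18 were lower against 23.6%. The median of all genes was -0.26 and -0.21. The median of the 10 measured synthesis genes was 1.27 in hashed sample 1 and 0.10 in hashed sample 2. The type 2 cells of hashed sample 2 were themselves higher in these genes than those of hashed sample 1. Insig1 (41.9 and 22.7 against 31.5 and 50.3 CPM) and Abcg1 (37.7 and 94.6 against 56.4 and 42.9 CPM) changed sign between the hashed samples. Stress genes were lower in migratory cells for 8 of 11, and their part was not tested. Of related genes Pltp was lower (log2 -3.04 and -2.47). In type 1 dendritic cells (29 and 48 cells) Abca1 had 1 UMI in each hashed sample (3.99 and 2.05 CPM).

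**Figure D4:**
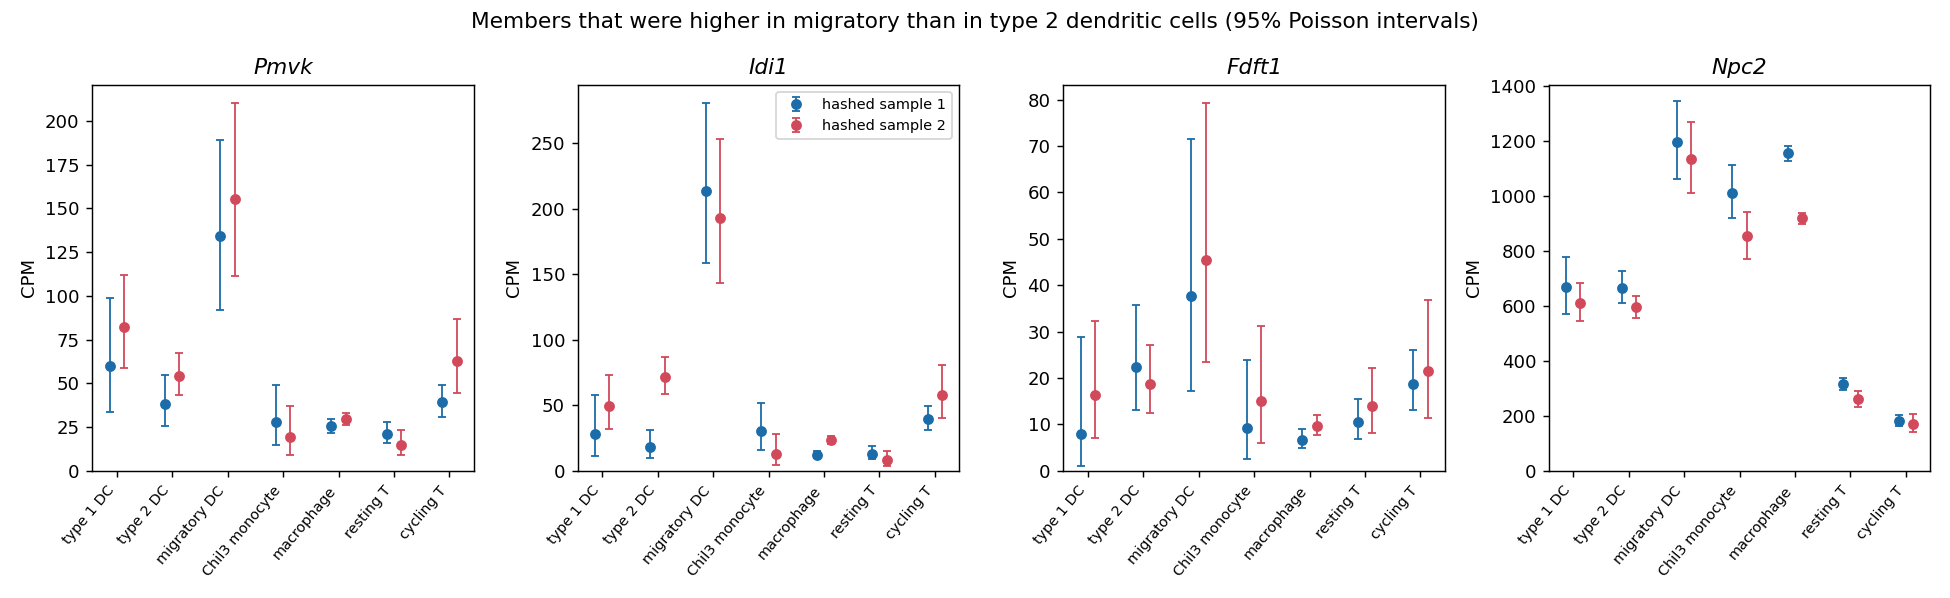
CPM of Pmvk, Idi1, Fdft1 and Npc2 in dendritic cell types, Chil3 monocytes, macrophages and T cells, with points for each hashed sample and 95% Poisson intervals. Pmvk (134 and 155 CPM) and Idi1 (214 and 193 CPM) stand above all other classes shown in migratory dendritic cells.

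Cycling T cells (172 and 52 cells) had more of 3 enzymes of the isoprenoid stage than resting T cells. Idi1 was at 39.6 and 58.0 CPM against 13.1 and 8.17 CPM, with log2 ratios of 1.30 and 2.26. Pmvk was at 39.0 and 63.0 CPM against 21.1 and 14.7 CPM, and Fdps at 46.8 and 71.3 CPM against 27.0 and 29.4 CPM. None of the 3 overlapped between the classes, and both cycling values lay above both resting values for 7 of 15 measured members and 37.2% of measured genes. Resting T cells fell short of the CPM needed to be measured for Idi1 in both hashed samples and for Pmvk in hashed sample 2. These genes were measured only through the cycling class, where they were high, so their separation comes partly from that selection. Of the 76 Idi1 UMIs in cycling T cells of hashed sample 1, 14 came from 1 cell. Lower in cycling cells were Abcg1 (22.9 and 11.6 against 37.5 and 29.4 CPM), Mylip (9.89 and 1.66 against 32.0 and 28.6 CPM), Npc1 (13.5 and 8.29 against 28.2 and 21.2 CPM) and Npc2 (182 and 171 against 315 and 261 CPM). In all, 3 of 15 members were higher and 4 lower, against 24.5% of genes (13.9% higher and 10.6% lower). Srebf2, the regulator of synthesis genes, was at 43.7 and 41.4 CPM against 33.7 and 26.9 CPM and was not counted. In cycling T cells the macrophage genes ranged up to Ctss, at 5.08% and 8.62% of its macrophage level. Mylip in hashed sample 2 was within that range, at 6.27%, while Npc1 was at 19.0% and 12.3% and Npc2 at 15.8% and 18.6%.

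Depth moved with these T cell differences. Cycling T cells had medians of 9801 and 9758 UMIs against 3368 and 3187 in resting T cells. When both were held to 5000 to 15000 UMIs, 9 members were measured, Pmvk and Fdps were still higher and none was lower. Stress genes were lower in cycling T cells for 5 of 10. Foxp3-positive T cells (38 and 12 cells) were compared with Foxp3-negative CD4 T cells (149 and 79 cells). Soat1 was at 83.2 and 138 CPM against 28.7 and 49.1 CPM, from 11 and 7 UMIs, and the interval of the ratio in hashed sample 2 (0.960 to 7.44) included 1. It was the 1 of 7 measured members counted, against 11.2% of genes in either direction (4.83% higher). The other leading members, Fdps (30.3 and 19.7 against 33.2 and 42.1 CPM), Srebf2 (68.1 and 19.7 against 33.2 and 38.6 CPM) and Nr1h2 (45.4 and 59.1 against 33.2 and 38.6 CPM), were not counted.

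The hashed samples themselves differed in some of these genes, and in macrophages the counted synthesis genes and LXR targets went opposite ways. Here 1 hashed sample is set against the other with no replicate behind it, and the genes were named after their values were seen. A gene was measured here when either hashed sample reached 20 CPM and 10 UMIs, so a low gene could enter through the hashed sample where it was high. In macrophages Idi1 was at 12.3 CPM in hashed sample 1 and 23.4 CPM in hashed sample 2, Cyp51 at 19.5 and 35.5 CPM, and Srebf2 at 28.0 and 45.1 CPM. Abcg1 went the other way, at 68.7 and 38.7 CPM, as did Mylip, at 53.2 and 26.4 CPM. That made 3 of 16 members higher in hashed sample 2, against 1.44% of genes, and 2 lower, against 1.17%. With the floor set on the mean of both hashed samples, a rule added after the data were seen, Idi1 was no longer measured. Then 2 of 15 members were higher (1.21% of genes) and 2 lower (0.985%), and Cyp51 was the 1 synthesis gene counted.

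In type 2 dendritic cells 9 of 19 members were higher in hashed sample 2, against 7.03% of genes, and 0 were lower, against 3.36%. The counted members were 8 of 11 measured synthesis genes (Hmgcs1, Mvk, Idi1, Fdps, Sqle, Cyp51, Msmo1 and Sc5d) and Insig1. With the floor on the mean, Mvk and Sc5d dropped out, and 7 of 16 members were higher, against 5.41% of genes, 6 of them among 8 synthesis genes. Idi1 had the widest gap, at 18.4 and 71.7 CPM, a ratio of 3.90 (2.23 to 7.38). In resting T cells 0 of 14 members passed 1.5-fold, against 3.55% of genes higher and 3.64% lower. In Arg1 macrophages 1 of 20 was higher (Abcg1, 48.9 and 79.1 CPM; 4.6% of genes) and 2 were lower (Abca1 and Lipa; 3.32% of genes). Whether these gaps belong to a difference in week, to the animals, the hashtag staining or the sampling of cells cannot be told apart here.

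**Figure D5:**
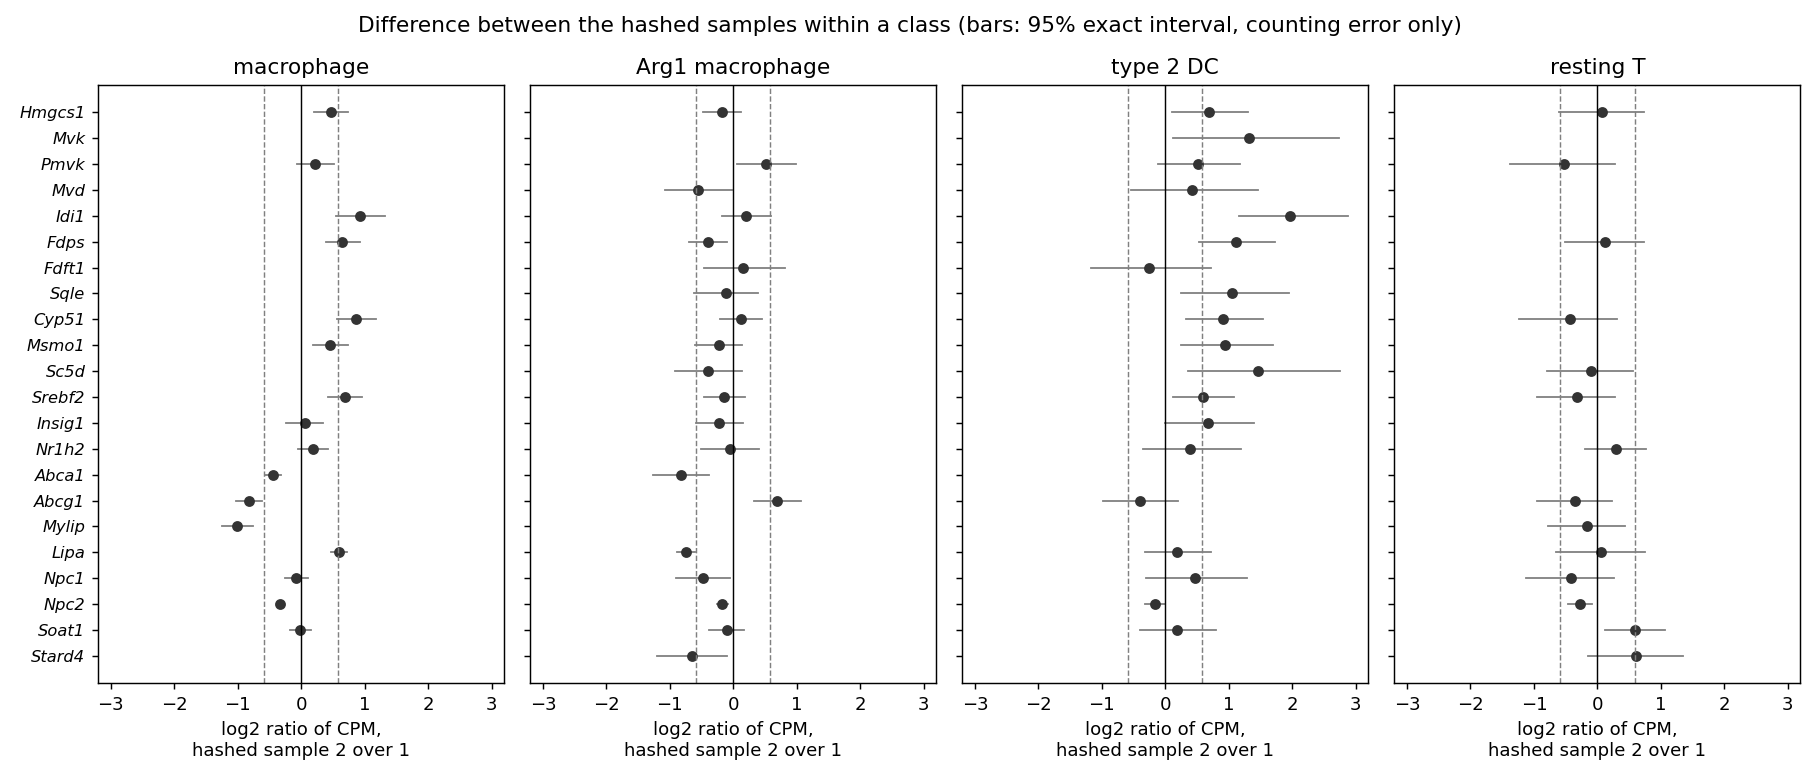
Log2 ratio of CPM, without pseudocount, of hashed sample 2 over hashed sample 1 for the measured members in macrophages, Arg1 macrophages, type 2 dendritic cells and resting T cells, with 95% exact intervals and dashed lines at 1.5-fold. Most synthesis genes of type 2 dendritic cells lie to the right of 0, and Abcg1 and Mylip of macrophages to the left.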

How the data were processed

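The authors' deposited matrices hold raw UMI counts per gene and cell, whose headers give Cell Ranger 6.1.1. Cell Ranger 6.0, Seurat 4.3.0 and mm10 are named per the submitters' processing notes. Total UMIs were 20743037 and 25314154. Each barcode's own hashtag was its highest in all 7015, and 0 barcodes were shared. Removed were 414 cells with under 200 genes, under 500 UMIs or over 10% mitochondrial UMIs. No doublet caller was run; 34 cells with T cell and C1q-high markers and others of mixed lineage were left ungated (1080 ungated in all). The spatial sample was not analysed here. Counts were summed per class and hashed sample and scaled to CPM (Python 3.11.15, scipy 1.17.1; TMM from edgeR 4.0.16). No test was run, because the labels do not settle the animal behind each hashed sample and cells are not replicates. Members named in a comparison are those counted, or with the largest mean log2 ratio of their role; up to 4 counted genes were named per related list. Some genes of the related lists are not reported here. The members and lists were chosen with earlier results of these data known. The fold rule was checked on simulated counts.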

Additional observations from a re-analysis of the deposited data

How the results depend on the processing

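The counts of members that passed 1.5-fold were set against each alternative, and the cause of each change below was not tested unless named. Hashed sample 1 alone, a rule that asks for 1 hashed sample in place of both, gave more higher members in these comparisons: 6 against the first monocyte gate, 8 against resting T cells, 3 in MHC II-low macrophages, 12 in Arg1 macrophages, 2 in the Pf4 state, 1 in the Cxcl9 state, 5 in cycling T cells, 6 in cycling macrophages, 10 in migratory dendritic cells and 5 in Foxp3-positive cells. It gave more lower members against Chil3 monocytes (2), resting T cells (1), in the Pf4 state (2), the Ccl3 state (2) and Foxp3-positive cells (1). Hashed sample 2 alone gave more higher members against Chil3 monocytes (5), the first monocyte gate (4) and resting T cells (10), and in the Ccl3, Fcgr4 and Cxcl9 states (1 each) and Foxp3-positive cells (3). It gave more lower members against Chil3 monocytes (5), the first gate (4) and resting T cells (1), and in the Cd163, Pf4, Ccl3 and Fcgr4 states (2 each), the Cxcl9 state (4), cycling T cells (7), migratory cells (5) and Foxp3-positive cells (2).

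With no low-value filter, higher members numbered 6 against the first monocyte gate, 1 in cycling macrophages, 7 in migratory cells and 4 in Foxp3-positive cells. Lower members then numbered 1 against resting T cells, 1 in the Cd163 state, 2 in the Cxcl9 state and 5 in Foxp3-positive cells. A floor of 50 CPM, which tests fewer genes, left 4 higher and 1 lower in Arg1 macrophages, 0 lower in the Pf4 state, 0 higher and 1 lower in cycling T cells, 1 lower in cycling macrophages, 1 lower in migratory cells and 0 higher in Foxp3-positive cells. A pseudocount of 1 CPM gave 1 lower against resting T cells. Stricter gates gave 1 lower against resting T cells and 1 lower in migratory cells. TMM factors left 1 higher in the Cd163 state and 1 lower in migratory cells, and at most 5% mitochondrial UMIs left 1 higher in the Cd163 state. Cells of 5000 to 15000 UMIs gave 1 lower in the Cd163 state, 0 lower in cycling T cells and 1 lower in cycling macrophages. Outside the Cd163 state 0 members were higher in MHC II-low macrophages, since the pseudocount takes the Abca1 ratio of hashed sample 1 from 1.52 to 1.498, and Arg1 cells above the C1q cut had 0 higher.

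TMM moved the median log2 ratio of all genes from 0.03 to 0.37 against the first monocyte gate, from -0.12 to 0.10 against resting T cells, from 0.12 to -0.02 in MHC II-low macrophages, from 0.09 to -0.05 in the Cd163 state, from 0.04 to -0.08 in cycling macrophages and from -0.03 to -0.31 in Foxp3-positive cells. Of the 38 single counted values, none reversed under any alternative, and 35 moved by less than their counting interval with TMM. A reversal could not occur with a single hashed sample, because counted values have the same sign in both. Nor could it occur with the floors, the missing filter or the pseudocount, which leave the sign unchanged. Each class ratio was taken within a hashed sample, so the classes are paired by hashed sample in every value given. No paired analysis was possible because no test was run and the labels give the analysed group 1 sample. A floor on the mean of both hashed samples kept the member counts between the hashed samples within 1.5 times. The count of synthesis genes higher in hashed sample 2 in macrophages went from 2 to 1. Depth limits the small classes most: 3 UMIs are 59.1 CPM in Foxp3-positive T cells of hashed sample 2, 25.6 CPM in patrolling monocytes of hashed sample 1 and 12.6 CPM in migratory dendritic cells of hashed sample 1. Intervals cover counting error only.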
